A study of Mus musculus with 6 samples.

Results

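This account describes 36 immediate-early and MAPK feedback genes in cultured cortical astrocytes that carry a knockout of Neo1. The genes were listed by symbol, and all 36 were found among the 54532 genes of the deposited count table. Knockout cultures came from mouse pups carrying GFAP-Cre, a Cre recombinase driven by the Gfap promoter, together with NEOf/f, the floxed Neo1 gene. Control cultures came from littermates. Their labels say only control, and their library names, Neoff, point to the floxed gene. Bulk RNA sequencing had been done on 3 knockout and 3 control libraries. Strain, sex, age at harvest, culture medium, days in culture and any treatment are not stated in the labels. The libraries are called biological replicates, but no pup, litter or dish is named, so p-values reflect only how much these samples vary, and that variation may be technical.

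Immediate-early genes are transcribed within minutes of a stimulus, without new protein synthesis. Growth factors, calcium and stress reach them through the ERK, JNK and p38 MAP kinases, which act on SRF with its ternary complex partners, on CREB and on AP-1 itself. Many of the products are transcription factors (FOS and JUN proteins of AP-1, EGR, KLF, NR4A), and others close the loop, such as the DUSP phosphatases, which remove phosphate from MAP kinases, and ZFP36, which promotes decay of AU-rich mRNAs. In astrocytes these genes are known to respond to mitogens, injury and inflammatory signals.

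Most members were lower in the knockout cultures. The members and the lists below were chosen with earlier results of these data known, so their shares beside all genes are descriptive. Of the 36 genes, all of which passed the filter on low counts, 23 were lower, 2 were higher and 11 were not called (quasi-likelihood test in edgeR, p-values adjusted by Benjamini-Hochberg over 18530 genes, threshold 0.05). Over all genes tested, 38.3% were called, 18.7% lower and 19.6% higher. Among the 12916 genes whose mean level lay between that of the lowest and the highest member, 49.1% were called, 24.7% lower and 24.5% higher. The median log2 fold change of knockout over control was −0.25 for the members and −0.0018 for all genes, and 31 of 36 members (86.1%) had a value under 0, against 50.2% of all genes tested. Scaling by total counts alone left 24 members lower and 2 higher, while the split over all genes moved to 2921 higher and 4499 lower, against 3627 and 3466 with TMM scaling.

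Levels are given as CPM, which are counts scaled to a common library total with TMM factors, or per unit of length as TPM. The changes were mostly modest. Against a minimum fold of 1.5, 4 members were called, all lower (Klf2, Dusp1, Npas4 and Ier2), where 5.47% of all genes passed. The groups did not overlap for 27 members, against 49.3% of all genes tested. Every knockout library was under every control library for 24 of them (24.5% of all genes) and over every control library for 3 (24.7%). Among the 12916 genes in the members' range of mean level, the groups did not overlap for 7646. Knockout libraries were all under control libraries for 3909 of those and all over them for 3737.

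**Figure D1:**
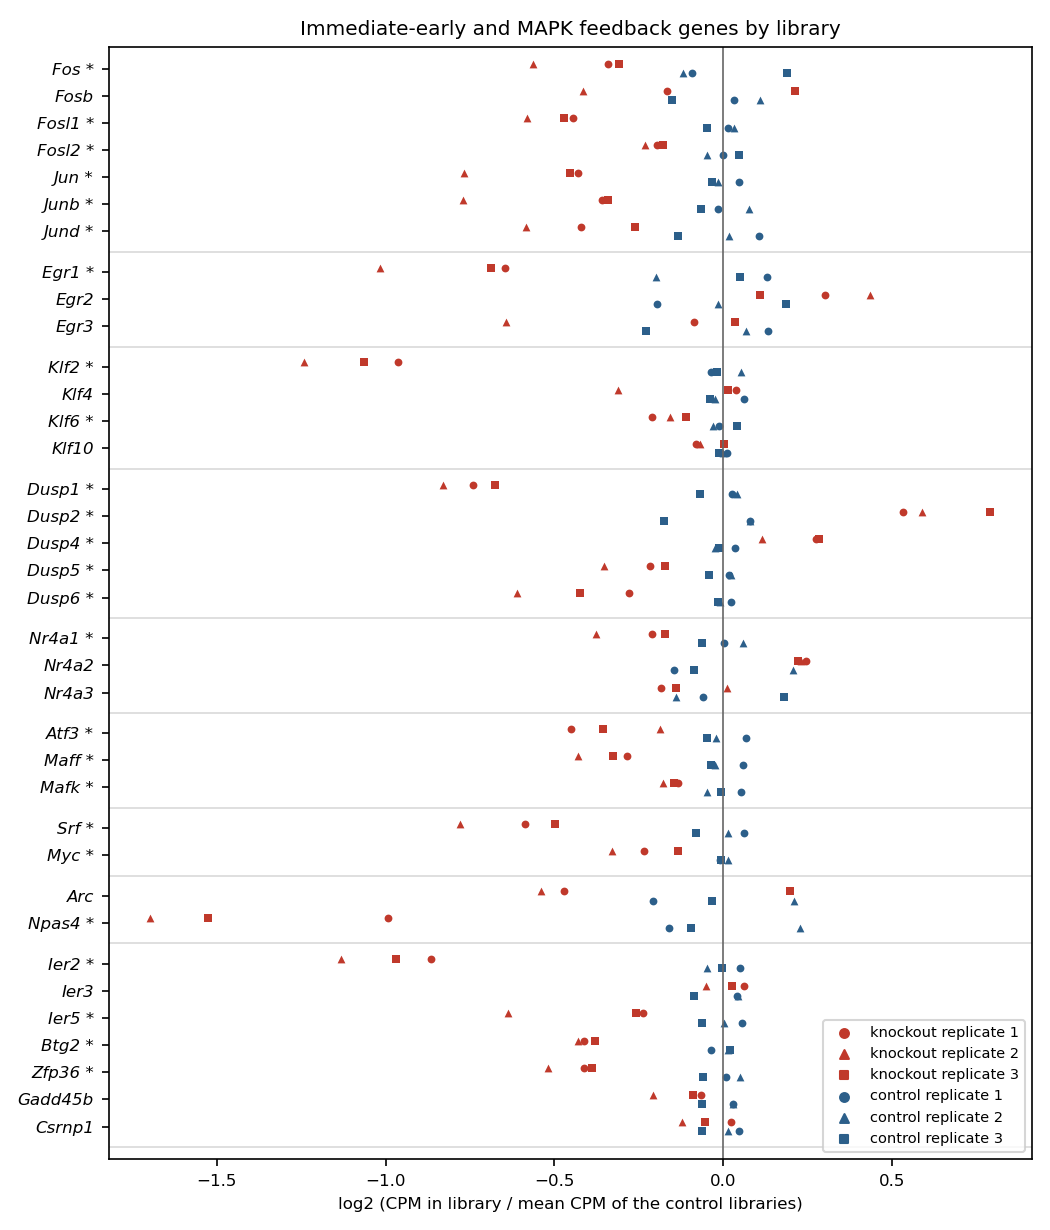
Level of each member in each library, as the log2 ratio to the mean CPM of the 3 control libraries (knockout red, control blue). Marker shape gives the replicate number, and whether replicates are paired is not stated. An asterisk marks a called gene. Knockout points lie to the left of all control points for 24 of 36 members, and knockout replicate 2 is often the lowest.

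Neo1 itself, which checks the labels, had 101, 106 and 105 CPM in knockout libraries against 189, 189 and 198 CPM in control libraries, a log2 fold change of −0.89 (SE 0.05). Knockout cultures thus kept Neo1 transcript, and which cells or exons it came from is not shown by gene counts. Total counts ran from 74614772 to 97453331 in knockout and from 60819277 to 106081115 in control libraries. The second principal component (19.6% of variance) set knockout replicate 2 apart. On the first (49.3%) that library lay furthest from the control libraries, at −67.0, beside −30.0 and −30.5 for knockout replicates 1 and 3. It detected 22076 genes, against 25767 and 25030 in those 2. It had the lowest level of the 3 knockout libraries for 29 of 36 members. Without it 22 members were called lower and 2 higher, and the median log2 fold change of the members was −0.191, against −0.246 with all libraries. The median coefficient of variation of the members was 8.31% within knockout and 4.0% within control libraries, beside 8.51% and 7.71% over all genes tested. Among genes in the members' range of mean level it was 5.82% within knockout and 5.33% within control libraries. Members thus varied more than such genes in knockout and less in control libraries. Defining astrocyte genes were present, and the summed CPM of 9 markers ran from 2471 to 2604 in knockout and from 2690 to 2761 in control libraries, with 2 called higher and 5 lower. These moved in opposite directions within the sum. Gfap was at 431 ± 3.85 CPM in knockout and 946 ± 20.8 CPM in control (log2 fold change −1.13) and Aldoc had a log2 fold change of −0.86, while Slc1a2 was at 371 ± 16.6 CPM in knockout and 133 ± 8.41 CPM in control (1.48) and Aqp4 had a log2 fold change of 0.54 (SD, n = 3). Summed markers of other cells differed between genotypes without overlap, except for the oligodendrocyte lineage, where the sums overlapped. Fibroblast and meningeal markers were higher for 9 of 9 genes (summed 10738 to 11494 CPM in knockout, 7654 to 8148 CPM in control), and microglia and macrophage markers were lower for 8 of 11 and higher for 1 (45.0 to 50.1 CPM against 73.1 to 77.8 CPM). Pericyte and smooth muscle markers were lower for 3 of 5 and higher for 1 (2806 to 2857 CPM against 3849 to 4040 CPM), and neuronal markers lower for 2 of 7 tested (348 to 365 CPM against 408 to 422 CPM). Endothelial markers were higher for 2 of 4 tested (69.5 to 72.5 CPM against 39.1 to 42.3 CPM), and oligodendrocyte lineage markers were higher for 2 and lower for 3 of 7 tested (246 to 283 CPM against 268 to 272 CPM). No marker was at 0 in every library. The part of these cells in the results below was not tested, and in bulk RNA fewer cells of a type and less RNA per cell cannot be told apart.

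Promoter sequence is shown for the called members that carry a serum response or cAMP response motif near the start, since SRF and CREB are the textbook activators of these genes. Promoter windows of 300 bases (250 before to 50 after a start) were matched by symbol for 28 of 36 members in RefSeq on GRCm38.p6. Arc, Dusp4, Egr1, Egr3, Fosl1, Ier2, Klf10 and Myc were not matched. The CArG box (CC, a run of A or T, then GG), which SRF binds, was present on either strand in 4 of 28 members (Dusp5, Egr2, Srf and Zfp36) and in 1.81% of 27025 genes with a window. The full cAMP response element TGACGTCA was present in 3 of 28 (Btg2, Dusp1 and Maff) and in 2.03% of genes, and its core TGACG, which the full element contains, in 19 of 28 and in 23.0% of genes. The AP-1 site TGANTCA was present in 1 of 28 (Csrnp1) and in 8.97% of genes. Of the 19 matched members that were lower, 3 held a CArG box, 3 the full element, 12 the core and 0 the AP-1 site. The core was also present in Csrnp1, Egr2, Fosb, Klf4, Nr4a2 and Nr4a3, which were not called, and in Dusp2, which was higher. These matches are a description of letters in short windows and not evidence of binding. Sites outside the windows were not searched, so a gene without a match may hold one further from its start. A gene with several windows was counted once if any of them held the motif. The 200 bases before the start are printed for the 6 called members, all lower in knockout, with a CArG box or full cAMP response element in capitals. Srf lies at chr17:46556163-46556362 (minus strand), Zfp36 at chr7:28379229-28379428 (minus), Dusp5 at chr19:53528945-53529144 (plus), Dusp1 at chr17:26508473-26508672 (minus), Btg2 at chr1:134079156-134079355 (minus) and Maff at chr15:79347320-79347519 (plus, at an alternative start).
Srf: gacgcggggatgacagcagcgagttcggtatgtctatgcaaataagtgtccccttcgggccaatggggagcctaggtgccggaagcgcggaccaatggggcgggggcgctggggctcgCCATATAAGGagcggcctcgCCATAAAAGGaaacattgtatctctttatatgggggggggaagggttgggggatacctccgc
Zfp36: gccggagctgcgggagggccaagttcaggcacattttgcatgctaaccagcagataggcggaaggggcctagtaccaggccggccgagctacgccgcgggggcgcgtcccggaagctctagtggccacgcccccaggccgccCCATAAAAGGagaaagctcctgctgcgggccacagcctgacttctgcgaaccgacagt
Dusp5: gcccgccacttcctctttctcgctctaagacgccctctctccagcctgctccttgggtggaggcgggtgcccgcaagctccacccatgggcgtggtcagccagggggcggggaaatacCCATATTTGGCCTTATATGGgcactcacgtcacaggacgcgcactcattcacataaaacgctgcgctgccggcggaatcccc
Dusp1: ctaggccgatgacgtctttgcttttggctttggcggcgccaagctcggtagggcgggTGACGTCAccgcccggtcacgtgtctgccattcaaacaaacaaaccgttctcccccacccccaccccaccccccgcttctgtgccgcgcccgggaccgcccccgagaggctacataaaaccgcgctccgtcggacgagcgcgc
Btg2: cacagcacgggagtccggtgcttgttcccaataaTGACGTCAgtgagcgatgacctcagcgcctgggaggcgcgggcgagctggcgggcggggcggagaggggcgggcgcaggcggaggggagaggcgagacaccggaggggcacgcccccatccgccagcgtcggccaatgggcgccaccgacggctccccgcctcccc
Maff: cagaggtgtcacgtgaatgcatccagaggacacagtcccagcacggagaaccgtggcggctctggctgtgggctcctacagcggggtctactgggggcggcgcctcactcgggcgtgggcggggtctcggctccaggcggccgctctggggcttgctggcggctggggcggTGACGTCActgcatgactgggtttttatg

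The Srf and Dusp5 windows each hold a pair of CArG boxes, with first bases at −82 and −62 for Srf and at −82 and −72 for Dusp5, counted from the start. Zfp36 has its box at −58. Full cAMP response elements begin at −143 in Dusp1, −166 in Btg2 and −29 in Maff. Egr2, which has CArG boxes in its windows, was not called, and Csrnp1, with AP-1 sites, was not called either.

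AP-1 is a dimer of FOS and JUN proteins or of JUN proteins alone. Of its 7 genes, 6 were lower in knockout cultures and none was higher (median log2 fold change −0.42). Beside them, 18.7% of all genes tested and 24.7% of genes in the members' range of mean level were lower. Jun, the founding JUN gene (GRCm38 chromosome 4, 95049034 to 95052222), had 125, 98.7 and 122.7 CPM in knockout libraries against 173, 166 and 164 CPM in control libraries. The groups did not overlap, and knockout replicate 2 was the lowest. Its log2 fold change was −0.54 (SE 0.07, edgeR adjusted p = 3.8e-05). Junb, which often restrains JUN activity, had 231, 174 and 234 CPM in knockout against 293, 313 and 283 CPM in control, again without overlap (log2 fold change −0.48, SE 0.12, edgeR adjusted p = 0.0203). Without control replicate 3 the Junb difference was −0.51 and no longer called (edgeR adjusted p = 0.0871). Jund, the JUN gene that is expressed most steadily in resting cells, had 28.3, 25.3 and 31.6 CPM in knockout against 40.8, 38.4 and 34.6 CPM in control (−0.42, SE 0.08, edgeR adjusted p = 6.7e-04).

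Fosl1 encodes FRA-1, a FOS protein without a strong activation domain that accumulates under sustained ERK signalling. It had 82.7, 75.3 and 81.3 CPM in knockout against 114, 115 and 109 CPM in control, a log2 fold change of −0.50 (SE 0.05, edgeR adjusted p = 5.9e-07). A caution attaches to that gene: 57.2% of its exon bases overlap exons of Ccdc85b on the opposite strand, and whether the counting used strand is not stated. Ccdc85b was itself lower, at 29.5 ± 6.69 CPM in knockout and 71.5 ± 3.14 CPM in control cultures (SD, n = 3), and without strand the reads of both genes in the overlap cannot be told apart. Jund has the same kind of overlap over 52.6% of its exon bases with Gm11175, which had 0 counts in every library. Those 0 counts do not show that Jund reads were counted in full, since the use of strand is not stated. The overlaps of Jun with Junos (7.28%) and of Junb with Prdx2 (7.52%) are small, and neither partner was called.

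Fosl2, which encodes FRA-2, fell least among the called AP-1 genes, to 341, 333 and 345 CPM in knockout libraries against 390.3, 377 and 403 CPM in control libraries (log2 fold change −0.20, SE 0.04, edgeR adjusted p = 9.2e-04). Its groups were close together but separate. Fos, the founding FOS gene (chromosome 12, 85473890 to 85477273), had 8.06, 6.90 and 8.24 CPM in knockout against 9.58, 9.40 and 11.6 CPM in control (−0.40, SE 0.12, edgeR adjusted p = 0.0136). That call was lost without control replicate 3 (−0.30, edgeR adjusted p = 0.091). Fosb, whose truncated product is known from neurons, was not called, with 4.94, 4.16 and 6.42 CPM in knockout against 5.66, 5.97 and 4.99 CPM in control, and the libraries of both groups were interleaved.

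Per unit of exon length, summed AP-1 levels were 785 ± 85.1 TPM in knockout and 1094 ± 16.2 TPM in control cultures (SD, n = 3). TPM here are counts divided by the union length of a gene's exons and scaled to the same sum in every library. The caution on overlapping exons of Fosl1 and Jund holds for these sums, shares and ranks too. Junb was the most abundant AP-1 gene on this scale in both groups, at 324 ± 52.2 TPM in knockout and 462 ± 19.9 TPM in control. Fos itself was at 11.5 ± 1.10 TPM and 15.6 ± 2.12 TPM. The FOS genes together made up 33.9, 38.1 and 33.5% of AP-1 TPM in knockout libraries and 32.9, 32.3 and 34.1% in control libraries, so their share overlapped between groups and was highest in knockout replicate 2.

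**Figure D2:**
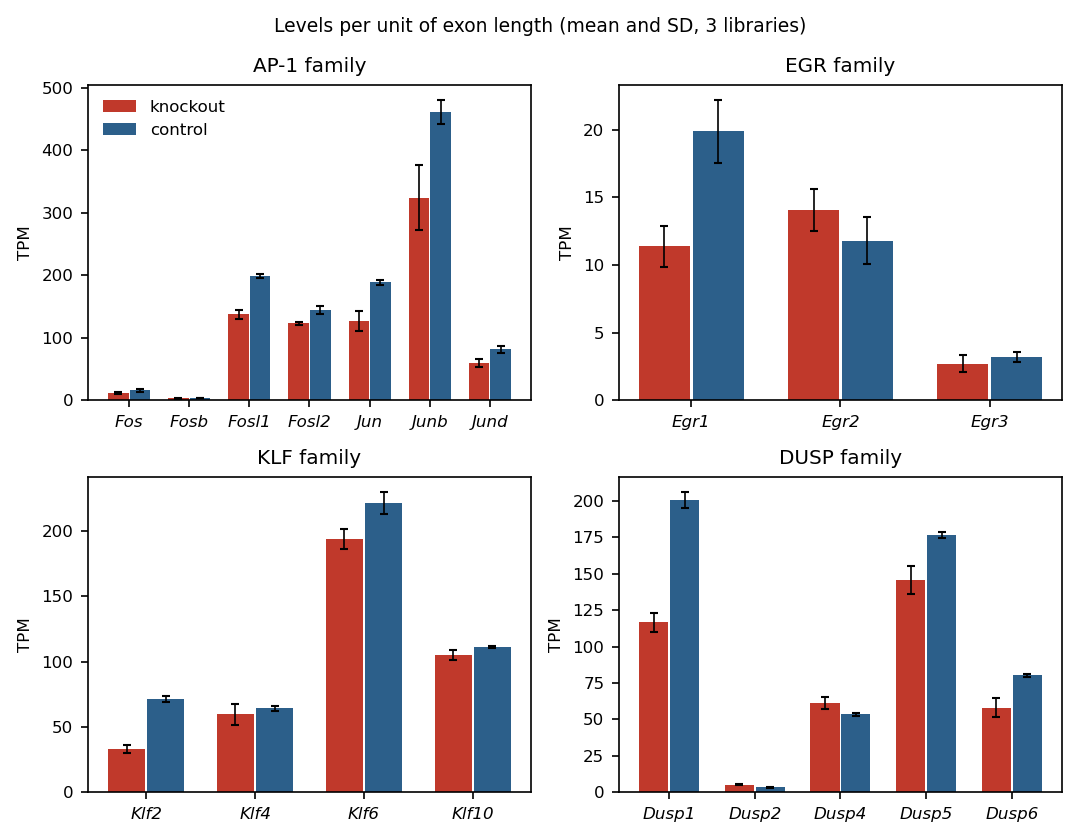
Level per unit of exon length (TPM, linear axis from 0) of the AP-1, EGR, KLF and DUSP genes in knockout (red, left) and control (blue, right) cultures; bars are means and error bars SD of 3 libraries. Junb, Fosl1, Jun and Fosl2 make up most of AP-1, and Dusp1 and Klf2 show a wide gap, at 117 and 33.1 TPM in knockout and 200.4 and 71.8 TPM in control.

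The EGR genes encode zinc finger factors that are switched on by ERK through SRF. Of the 3 members, 1 was lower and none was higher (33.3% called, near the 38.3% of all genes tested). Egr1 (chromosome 18, 34859823 to 34864984) had 15.9, 12.3 and 15.5 CPM in knockout libraries against 27.2, 21.7 and 25.8 CPM in control libraries (log2 fold change −0.77, SE 0.10, edgeR adjusted p = 1.5e-05). All 3 knockout libraries lay well below the lowest control library. Egr2, known for its role in myelinating Schwann cells, had 13.8, 15.1 and 12.1 CPM in knockout against 9.76, 11.1 and 12.7 CPM in control, and these ranges overlapped. Its log2 fold change of 0.28 (SE 0.11) was not called (edgeR adjusted p = 0.0597). It was called higher without knockout replicate 3 (0.36, edgeR adjusted p = 0.0293) or control replicate 3 (0.39, edgeR adjusted p = 0.0228), under no filter (0.28, edgeR adjusted p = 0.0418) and under a filter of 1 CPM in 3 libraries (0.29, edgeR adjusted p = 0.0436). Egr3, known for its role in muscle spindles, averaged 3.41 ± 0.793 CPM in knockout and 3.93 ± 0.507 CPM in control cultures (SD, n = 3) and was not called.

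Of the 4 KLF genes, 2 were lower and none was higher (50% called, near the 49.1% of genes in the members' range of mean level). Klf2 (chromosome 8, 72319033 to 72321656), a zinc finger factor best known as a shear stress and anti-inflammatory regulator in endothelium, had 19.0, 15.6 and 17.7 CPM in knockout libraries against 36.1, 38.3 and 36.5 CPM in control libraries. The groups were far apart, with a log2 fold change of −1.08 (SE 0.08, edgeR adjusted p = 4.2e-09). Of 4 endothelial markers tested, Cdh5 (53.4 ± 1.93 CPM in knockout, 26.8 ± 0.439 CPM in control) and Kdr (14.8 ± 1.26 CPM in knockout, 11.8 ± 1.65 CPM in control; SD, n = 3) were higher. Pecam1 and Tek were not called, and Cldn5 was too low to test. Their part in the Klf2 value was not tested. Klf6, an injury-responsive family member, changed little, to 234, 243 and 251 CPM in knockout against 269, 265 and 279 CPM in control (−0.16, SE 0.04, edgeR adjusted p = 0.00785), and lost its call without knockout replicate 1 (−0.14, edgeR adjusted p = 0.0579).

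Klf4, a pluripotency and differentiation factor, averaged 51.9 ± 6.76 CPM in knockout and 54.7 ± 2.12 CPM in control cultures, and Klf10, a TGF-beta inducible gene, 125 ± 3.90 CPM and 129 ± 1.14 CPM (SD, n = 3). Neither was called. The log2 fold change of Klf4 was −0.08, and 0.03 without knockout replicate 2.

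DUSP proteins dephosphorylate MAP kinases. All 5 DUSP members were called, 3 lower and 2 higher, with no overlap between groups for any of them. The shares over all genes tested were 38.3% called and 49.3% without overlap. Among genes in the members' range of mean level, 49.1% were called, and groups did not overlap for 7646 of 12916. Dusp1, a nuclear phosphatase that acts mainly on p38 and JNK, is on chromosome 17 (26505590 to 26562128). It had 111, 104 and 116 CPM in knockout libraries against 188, 190.4 and 176 CPM in control libraries. Its log2 fold change was −0.75 (SE 0.05, edgeR adjusted p = 2.7e-09), and the highest knockout library was far below the lowest control library. Dusp6, the cytoplasmic phosphatase specific for ERK and a standard readout of ERK output, had 57.8, 45.8 and 52.2 CPM in knockout against 71.2, 69.6 and 69.3 CPM in control (−0.43, SE 0.07, edgeR adjusted p = 8.9e-05).

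Dusp5, the nuclear phosphatase specific for ERK, had 105, 95.4 and 108 CPM in knockout against 123.2, 123.8 and 118 CPM in control (−0.24, SE 0.05, edgeR adjusted p = 0.00133). Its exons overlap those of AC137853.2 on the opposite strand over 22.1% of their bases. No level of AC137853.2 is given here, and whether the counting used strand is not stated. The caution on shared or lost reads thus holds for the counts, TPM and rank of Dusp5 too. The phosphatase genes that rose were Dusp4 and Dusp2. Dusp4, another nuclear phosphatase induced by ERK, had 49.4, 44.2 and 49.7 CPM in knockout against 41.9, 40.1 and 40.5 CPM in control (0.23, SE 0.06, edgeR adjusted p = 0.00737). Dusp2, mainly known from activated leukocytes, was scarce, at 2.84, 2.95 and 3.39 CPM in knockout against 2.07, 2.07 and 1.74 CPM in control (0.64, SE 0.20, edgeR adjusted p = 0.015). The Dusp2 call was lost without knockout replicate 3 (0.56, edgeR adjusted p = 0.0754) or control replicate 3 (0.56, edgeR adjusted p = 0.0646).

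Srf encodes serum response factor, the DNA-binding partner through which ERK and actin dynamics act on these genes, and Srf is itself one of its targets. It had 42.1, 36.8 and 44.7 CPM in knockout libraries against 65.9, 63.8 and 59.8 CPM in control libraries (log2 fold change −0.62, SE 0.07, edgeR adjusted p = 1.5e-06). No knockout library reached the lowest control library. Myc, a growth-promoting factor, had 65.1, 61.0 and 69.8 CPM in knockout against 76.1, 77.4 and 76.3 CPM in control (−0.23, SE 0.06, edgeR adjusted p = 0.00341).

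Among the other bZIP factors all 3 were lower without overlap. Over all genes tested, 18.7% were called lower and 24.5% had every knockout library under every control library. Atf3, a stress-induced repressor, averaged 30.8 ± 2.89 CPM in knockout and 38.7 ± 1.63 CPM in control cultures (log2 fold change −0.33). The small MAF genes Maff and Mafk, whose products lack an activation domain, averaged 146 ± 7.53 and 73.2 ± 1.16 CPM in knockout against 186 ± 6.69 and 81.4 ± 2.92 CPM in control (−0.35 and −0.15; SD, n = 3). For Mafk the adjusted p was 0.0239 by edgeR, and 0.0504, 0.0636 and 0.116 without knockout replicate 1, knockout replicate 3 and control replicate 1.

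NR4A genes encode orphan nuclear receptors. Nr4a1 was lower, with 18.2, 16.2 and 18.7 CPM in knockout libraries against 21.1, 21.9 and 20.1 CPM in control libraries (log2 fold change −0.25, SE 0.08, edgeR adjusted p = 0.0224). That call was lost without knockout replicate 2 (−0.19, edgeR adjusted p = 0.0644), control replicate 1 (−0.25, edgeR adjusted p = 0.0642) or control replicate 2 (−0.23, edgeR adjusted p = 0.0886). Nr4a2, known for its role in dopamine neurons, was not called although its knockout libraries, at 9.85, 9.76 and 9.70 CPM, lay above the control libraries at 7.52, 9.60 and 7.83 CPM (0.23, SE 0.12, edgeR adjusted p = 0.13). It was called without control replicate 2 (0.34, edgeR adjusted p = 0.0463). Nr4a3 averaged 6.70 ± 0.484 CPM in knockout and 7.19 ± 0.848 CPM in control and was not called.

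The neuronal activity genes were near the bottom of the range. Npas4, a calcium-induced factor of neurons, had 170, 80 and 90 counts in knockout libraries against 197, 286 and 359 counts in control libraries. As CPM these were 1.78, 1.09 and 1.23 in knockout and 3.17, 4.15 and 3.31 in control. The log2 fold change was −1.36 (SE 0.23, edgeR adjusted p = 1.2e-04), the widest among the members. Of 7 neuronal markers tested, Stmn2 (225 ± 9.11 CPM in knockout, 284 ± 8.35 CPM in control) and Tubb3 (33.2 ± 1.29 CPM in knockout, 40.8 ± 2.89 CPM in control; SD, n = 3) were lower. The other 5 were not called, among them Map2 at 88.4 ± 2.40 CPM in knockout and 80.7 ± 5.50 CPM in control. Their part in the Npas4 value was not tested. Arc, a synaptic plasticity gene, had 1.44, 1.38 and 2.30 CPM in knockout against 1.74, 2.32 and 1.96 CPM in control and was not called.

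Ier2, a short-lived nuclear protein gene, is on chromosome 8 (84661331 to 84662852). It had 16.0, 13.3 and 14.9 CPM in knockout libraries against 30.1, 28.1 and 29.0 CPM in control libraries (log2 fold change −0.98, SE 0.08, edgeR adjusted p = 3.1e-08). Control libraries were thus all far above knockout libraries. Ier5, whose product binds the phosphatase PP2A, had 94.0, 71.3 and 92.8 CPM in knockout against 115, 111 and 106 CPM in control (−0.37, SE 0.09, edgeR adjusted p = 0.00679), with knockout replicate 2 the lowest. Ier3, an apoptosis-modulating gene and the most abundant member per unit of length (1923 ± 76.6 TPM in knockout, 1950.1 ± 74.1 TPM in control), had 642, 594 and 627 CPM in knockout against 633, 634 and 579 CPM in control. It was not called, its log2 fold change of 0.01 was −0.05 with total-count scaling, and its libraries overlapped.

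Btg2, an antiproliferative gene, and Zfp36, the mRNA decay factor, were both lower without overlap. Btg2 had 69.1, 68.2 and 70.7 CPM in knockout against 89.7, 92.8 and 93.3 CPM in control (log2 fold change −0.41, SE 0.05, edgeR adjusted p = 3.5e-06). Zfp36 had 42.5, 39.5 and 43.2 CPM in knockout against 56.9, 58.6 and 54.2 CPM in control (−0.44, SE 0.06, edgeR adjusted p = 1.3e-05). Gadd45b, a stress gene upstream of p38 and JNK, averaged 229.7 ± 11.9 CPM in knockout and 249.5 ± 9.15 CPM in control (SD, n = 3). It was not called (log2 fold change −0.12, edgeR adjusted p = 0.06). Gadd45b was called without control replicate 3 (−0.15, edgeR adjusted p = 0.0196) and, separately, with upper-quartile scaling (−0.14, edgeR adjusted p = 0.0362). It was also called with total-count scaling (−0.18, edgeR adjusted p = 0.0058) and under no filter (−0.13, edgeR adjusted p = 0.0446). Csrnp1, a nuclear factor gene, averaged 95.1 ± 4.87 CPM in knockout and 98.4 ± 3.83 CPM in control and was not called.

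The order of members by level per unit of length was similar in both groups. Ier3, Gadd45b, Junb, Maff and Klf6 ranked 1 to 5 in knockout as in control cultures. In knockout cultures Dusp5, Fosl1, Jun and Fosl2 followed, and the spread of Jun (127 ± 16.1 TPM) took in Fosl1 (137 ± 6.91 TPM) and Fosl2 (122.9 ± 2.61 TPM; SD, n = 3). At the lower end Fosb, Egr3, Arc and Npas4 averaged between 1.16 and 2.90 TPM in knockout and between 2.35 and 3.19 TPM in control. Dusp1 ranked 10 in knockout and 6 in control, and Dusp4 ranked 17 in knockout and 25 in control.

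The kinases and factors upstream of these genes did not share one direction, and nor did all genes tested (19.6% higher, 18.7% lower). Shares called in the lists below stand beside 38.3% of all genes and 49.1% of genes in the members' range of mean level. Of 32 genes of the RAS-RAF-MEK-ERK cascade, 8 were higher and 11 lower in knockout cultures (59.4% called). The median log2 fold change of this cascade was 0.06, and −0.0059 with total-count scaling. The receptor genes Pdgfrb and Pdgfra were higher, at 115 ± 3.56 and 14.1 ± 0.585 CPM in knockout against 80.3 ± 3.17 and 7.64 ± 0.598 CPM in control (0.52 and 0.88). Pdgfra is also among the fibroblast and oligodendrocyte lineage markers used above, and Pdgfrb among the pericyte and smooth muscle markers. The RAS-related genes Mras and Rras2 were lower, with log2 fold changes of −0.56 (SE 0.05) and −0.50 (SE 0.05), and Rras2 had 77.0 ± 1.69 CPM in knockout and 109 ± 3.01 CPM in control (SD, n = 3).

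JNK and p38 cascade genes were split 6 higher and 6 lower of 21 (57.1% called, median −0.01). The scaffold gene Mapk8ip1, the p38 substrate kinase gene Mapkapk3 and the stress kinase gene Map3k5 were lower (−0.71, −0.59 and −0.84), and Map3k7, which encodes TAK1, was higher (0.29). Of 18 transcription factors and cofactors upstream of immediate-early genes, 4 were higher and 3 lower (38.9% called, near the 38.3% of all genes). Creb1, Crtc1 and Myocd were higher (0.26, 0.22 and 0.71) and Mef2d was lower (−0.30). The median of the 18 was 0.06, and −0.0048 with total-count scaling. With 1 library left out, 3 to 5 of these factors were higher and 1 to 2 lower, with 1 lower in each such fit except that without knockout replicate 1. Crtc1 was not called without knockout replicate 3 (0.19, edgeR adjusted p = 0.0616) or with total-count scaling (0.16, edgeR adjusted p = 0.0602).

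Of 21 other genes of ERK feedback, 11 were lower and 2 higher (61.9% called, median −0.15), and with 1 library left out 10 or 11 were lower. Without control replicate 3, 4 of these genes were higher, and 1 was higher without knockout replicate 1, knockout replicate 3, control replicate 1 or control replicate 2. Spry1 and Spry2, which encode Sprouty inhibitors of receptor signalling to RAS, had 9.43 ± 0.514 and 43.9 ± 2.74 CPM in knockout against 23.0 ± 0.846 and 65.7 ± 3.05 CPM in control (−1.29 and −0.58). Etv5, an ETS factor gene induced by ERK, averaged 120.1 ± 3.89 CPM in knockout and 164 ± 7.54 CPM in control (−0.45). Dusp7, an ERK phosphatase gene outside the member list, averaged 60.6 ± 2.81 CPM and 84.0 ± 1.43 CPM (−0.47; SD, n = 3).

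Of 39 other immediate-early genes tested out of 40, 16 were lower and 8 higher (61.5% called, median −0.14). Nptx2, a neuronal pentraxin, was at 12.6 ± 1.26 CPM in knockout and 34.9 ± 1.92 CPM in control (−1.46), and Cyr61, a matricellular target of SRF and YAP, at 984 ± 25.1 CPM and 1450.3 ± 40.5 CPM (−0.56). Moving the other way, the cytokine gene Lif was at 793 ± 4.33 CPM in knockout and 551 ± 4.04 CPM in control (0.53), and Ptgs2, which encodes the inducible cyclooxygenase, at 2349.7 ± 111 CPM and 1144 ± 49.96 CPM (1.04; SD, n = 3).

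Cytoskeletal genes that SRF controls with MRTF cofactors were lower for 15 of 20 and higher for 2 (85% called, median −0.35). The higher ones, Cald1 and Vcl, are named after their values were seen. Cnn1, smooth muscle calponin, was at 119.8 ± 1.70 CPM in knockout and 262 ± 10.2 CPM in control, and Myl9, a myosin light chain gene, at 233 ± 6.47 CPM and 429 ± 17.9 CPM (−1.13 and −0.88). Cnn2 and Fhl1 had log2 fold changes of −0.81 and −0.62. Acta2 and Tagln of this list are also smooth muscle markers used above. In that marker list Acta2, Tagln and Myh11 were lower, Pdgfrb was higher and Rgs5 was not called. Most of its sum was Acta2, at 2685 ± 29.4 CPM in knockout and 3850 ± 106 CPM in control (SD, n = 3), and the part of those cells in these values was not tested. Heat shock genes, which respond to protein stress, were 5 higher and 3 lower of 12 (66.7% called, median 0.04). Hspb1 was lower (−0.90), and Hsp90aa1, Dnaja1 and Hspd1 were higher (0.28, 0.26 and 0.23). With total-count scaling the heat shock list had 3 higher and 4 lower (median −0.022). Without knockout replicate 1, control replicate 1 or control replicate 3 it had 3 higher, and its median was −0.0181 without control replicate 3.

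**Figure D3:**
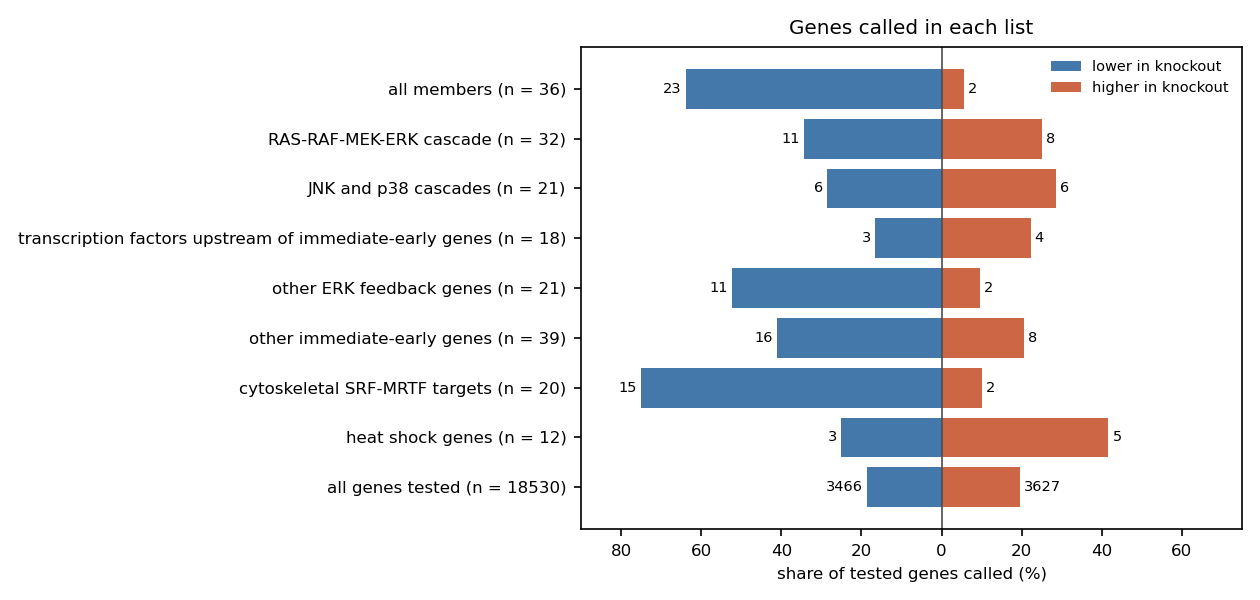
Share of tested genes called lower (blue, to the left) and higher (orange, to the right) in knockout cultures for each list, with counts beside the bars; the last row is all genes tested. The members and the cytoskeletal SRF-MRTF targets are mostly lower (23 of 36 and 15 of 20), and the kinase cascades are split. Both members and lists were chosen with earlier results of these data known.

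**Figure D4:**
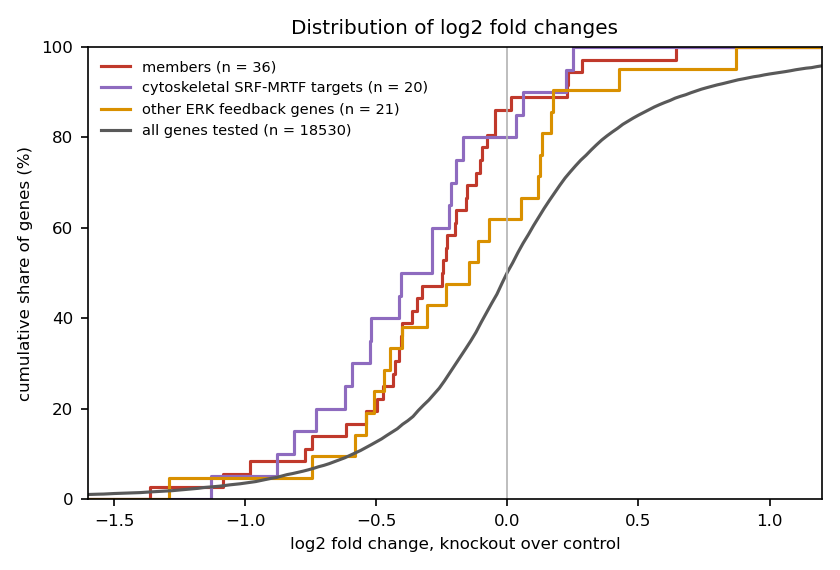
Cumulative share of genes (percent) against log2 fold change of knockout over control for the members, 2 of the pathway lists and all genes tested. The curve of the members lies to the left of that of all genes over most of the range, with medians of −0.25 and −0.0018.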

How the data were processed

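Trizol was used for RNA extraction and poly-T beads for library making, per the labels' protocols. HISAT2 2.2.1 and featureCounts 2.0.6 on GRCm38 (mm10) are named in the submitters' processing notes. Values in the deposited table are unnormalised whole-number counts, 1 row a gene. The sources used here do not give the annotation release, the use of strand or the treatment of multi-mapped reads. Columns were assigned to samples by library name.

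Counts were filtered with filterByExpr (minimum count 10, total 15), scaled by TMM and tested with edgeR 4.0.16 (glmQLFit robust, glmQLFTest, genotype only, two-sided, Benjamini-Hochberg over all genes) in R 4.3.3, checked on simulated data (scored over genes above 1 CPM). Alternatives used limma 3.58.1 and DESeq2 1.42.0. SE came from the test statistic. CPM use TMM-scaled totals; TPM use GENCODE vM21 union exon lengths. Overlapping exons came from that annotation, and near-identical transcripts from BLAST 2.17.0 (95% identity over 100 bases), which found none for a member beyond antisense overlaps and a short stretch of Zfp36. No 2 libraries of a group were duplicates (chi-square per gene 5.97 to 21.8). Named genes are all members, Neo1 and up to 4 called genes with the smallest p per list. Single cell type markers, genes that overlap members, Cald1 and Vcl are named beyond that rule. Members and lists were chosen with earlier results of these data known.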

Additional observations from a re-analysis of the deposited data

How the results depend on the processing

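Over 8 alternatives (median-of-ratios, upper-quartile and total-count scaling, dropping the filter, requiring 1 CPM in 3 libraries, DESeq2, limma-voom and a replicate block), 281 of 288 member values kept direction and call. Ier3, not called, turned to −0.0032 with upper-quartile and −0.0514 with total-count scaling. Against a fold of 1.5, 4 members were called (0 higher, 4 lower), 9 pathway genes and 1014 genes in all (666 higher, 348 lower); that test asks for larger changes by construction. With each library left out, 23 to 25 members were called (21 to 22 lower, 2 to 3 higher); 89 to 101 pathway genes and 5690 to 6927 genes in all were called (2907 to 3517 higher, 2753 to 3431 lower). In those fits 3 uncalled genes had either sign: Ier3 ran from −0.0328 to 0.0443, Fosb from −0.281 to 0.0354 and Klf4 from −0.14 to 0.0278. The cause was not tested. Of the 25 called members, 19 kept their call in every alternative but the fold minimum; Klf6, Mafk, Nr4a1, Dusp2, Fos and Junb each lost it without at least 1 library. Knockout and control replicates of the same number shared little deviation from their group means (correlations 0.0151, 0.0194 and −0.0082). Those values cannot show whether samples were paired by litter or batch. The replicate block gave 23 lower and 2 higher members. Depth limits the scarcest members most: Arc had 101 to 168 counts in knockout and 108 to 212 in control libraries.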
